A study of Homo sapiens with 24 samples.

Results

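The genes described here are the subunits of the transcription factor NF-kB together with genes that NF-kB induces and whose products hold it in check or act in the same receptor complexes. They are 10 of the 26475 genes measured in each library and were chosen by name, with earlier results of these data known. They comprise 5 subunits (NFKB1, NFKB2, RELA, RELB and REL), 2 inhibitors of the IkB family (NFKBIA and NFKBIE) and 3 further feedback genes (TNFAIP3, BIRC3 and TRAF1). The name of each gene was found in all 24 libraries, and all 10 genes passed the filter on low counts in every comparison.

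NF-kB proteins act as dimers that IkB proteins hold in the cytoplasm until a cytokine, a bacterial product or another signal triggers destruction of the IkB protein by way of the IkB kinase. The freed dimer enters the nucleus and switches on inflammatory and survival genes, among them NFKBIA and TNFAIP3, whose products then turn the signal off, which makes the mRNA of such feedback genes a familiar readout of the pathway. The canonical arm uses RELA, REL and the NFKB1 product, and the non-canonical arm uses RELB and the NFKB2 product. In clear cell renal cell carcinoma (ccRCC), NF-kB has long been studied as a source of cytokines and of survival signals.

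RNA-seq was performed on 786-M1A and OS-LM1, metastatic derivatives of established human ccRCC cell lines that both carry VHL mutations and were grown as cultures in RPMI with 10% FBS. In each line 4 libraries carry shPAX8-1, 4 carry shPAX8-2 and 4 carry sgNTC18. The first pair are RNA interference hairpins against PAX8, a transcription factor of the renal lineage on which ccRCC cells depend, and the last is, by its name, a non-targeting guide RNA for CRISPR editing. The question is how the NF-kB genes stand in cells with little PAX8. According to the study's methods the hairpins sit in doxycycline-inducible vectors and the control of the RNA interference experiment was another hairpin, so the sgNTC18 libraries differ from the shPAX8 libraries in the type of construct as well as in PAX8. A difference between shPAX8 and sgNTC18 libraries therefore cannot be told apart from the type of construct or from an experiment made at another time, whereas the comparison of shPAX8-1 with shPAX8-2 is free of the first. The labels do not say whether the 4 replicates of a group were separate cultures, so p-values measure the spread between these libraries, which may be technical. In bulk RNA, a lower level in every cell and a smaller number of expressing cells cannot be told apart.

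The guide strands of both hairpins are shown because their seeds (bases 2 to 8, in capitals) set which other transcripts the hairpins could bind.
shPAX8-1: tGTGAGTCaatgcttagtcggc
shPAX8-2: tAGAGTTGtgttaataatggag
The shPAX8-1 site lies at chr2:113241690-113241711 on the minus strand of hg38 and is present in 10 of 14 PAX8 transcripts of GENCODE v44, in 8 of them within the coding sequence. The shPAX8-2 site lies at chr2:113218122-113218143 and is present in 7 of the 14 transcripts, in each of them in the 3′ UTR. A 7-base match to the seed of shPAX8-1 (GACTCAC) was found in the longest 3′ UTR of 0 of the 10 NF-kB genes, against 8.46% of the 17844 genes with a 3′ UTR. For the seed of shPAX8-2 (CAACTCT) the share was 0 of 10 against 12.7%.

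Short stretches of promoter are shown because several of these genes are themselves NF-kB targets, and the capitals mark the letters that match the NF-kB consensus of 10 bases. A single match is shown for each gene except REL, whose run of 11 capitals holds 2 overlapping matches.
NFKB1: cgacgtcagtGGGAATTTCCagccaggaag
NFKB2: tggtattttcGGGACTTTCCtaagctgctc
REL: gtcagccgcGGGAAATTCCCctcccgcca
NFKBIA: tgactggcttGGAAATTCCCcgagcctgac
TNFAIP3: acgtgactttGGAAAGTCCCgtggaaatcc
BIRC3: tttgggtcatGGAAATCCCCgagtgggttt
The sequences are RefSeq promoters of GRCh38.p14 that run from 250 bases before to 50 bases after a start site, and both strands were searched. The stretches lie at chr4:102501300-102501329 (NFKB1), chr10:102395674-102395703 (NFKB2), chr2:60881518-60881546 (REL), chr14:35404811-35404840 (NFKBIA), chr6:137867182-137867211 (TNFAIP3) and chr11:102317275-102317304 (BIRC3), each given in the direction of the gene. Of the 10 genes, 8 matched an entry, and 6 of these 8 held at least 1 match in any of their windows, against 13.3% of 27305 genes. The windows of RELA and TRAF1 held no match to these letters.

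Library totals of the deposited RSEM expected counts ran from 11634419 to 52059375. PAX8, the targeted gene, stood at 292, 393, 360 and 319 CPM (counts scaled to the normalised library size) in the sgNTC18 libraries of 786-M1A cells, at 22.9, 21.9, 15.2 and 14.8 CPM with shPAX8-1 and at 41.4, 45.5, 42.6 and 40.0 CPM with shPAX8-2. In OS-LM1 cells it stood at 262, 279, 245 and 254 CPM with sgNTC18, at 85.6, 78.4, 59.8 and 89.2 CPM with shPAX8-1 and at 76.2, 63.8, 97.0 and 79.9 CPM with shPAX8-2. The groups were apart in both lines, and the log2 fold change against sgNTC18 was -4.16 and -2.99 in 786-M1A cells and -1.76 and -1.71 in OS-LM1 cells for shPAX8-1 and shPAX8-2, so PAX8 fell less in OS-LM1 cells. In 786-M1A cells with shPAX8-1, replicates 1 and 2 stood apart from replicates 3 and 4 for 70.7% of 15665 genes. Of the 10 NF-kB genes, 7 did so, and values that rest on this group are given with either pair alone where a call changed. Of 10 renal epithelial and ccRCC markers, 8 to 10 had a mean of at least 1 CPM in every group (CA9 and NDUFA4L2 being the ones below it in some), and endothelial markers summed to at most 1.41 CPM. The renal markers, PAX8 among them, summed to 10041 to 10399 CPM with sgNTC18, 8044 to 8914 CPM with shPAX8-1 and 8609 to 9527 CPM with shPAX8-2 in 786-M1A cells, and to 9750 to 12945, 6508 to 6873 and 5052 to 6508 CPM in OS-LM1 cells. Leukocyte markers had 2 of 7 genes at 1 CPM or more in sgNTC18 libraries (LYZ and CD68) and 3 with either hairpin (CD14 in addition), and CD3E was at 0 in every library. The 7 leukocyte markers summed to 186 to 218 CPM with sgNTC18, 203 to 310 CPM with shPAX8-1 and 310 to 404 CPM with shPAX8-2 in 786-M1A cells, and to 78.4 to 92.8, 253 to 364 and 194 to 267 CPM in OS-LM1 cells. Of 5 fibroblast markers 1 to 3 reached 1 CPM, and their sum was 535 to 727 CPM with sgNTC18, 203 to 424 CPM with shPAX8-1 and 671 to 891 CPM with shPAX8-2 in 786-M1A cells, and 14.8 to 20.2, 92.0 to 114 and 101 to 207 CPM in OS-LM1 cells. The part of these markers in the results below was not tested.

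Scaled per transcript length in TPM, RELA, the main transactivating subunit of the canonical arm, had the highest level of the 10 genes in every group, from a mean of 117 TPM (786-M1A, shPAX8-1) to 146 TPM (786-M1A, sgNTC18). In each group its range over 4 libraries lay above that of the next gene. REL, the subunit otherwise typical of lymphoid cells, had the lowest level with sgNTC18, at 2.71 ± 0.46 TPM in 786-M1A and 3.50 ± 0.42 TPM in OS-LM1 cells (SD, n = 4).
In 786-M1A cells the next levels were those of NFKB2, NFKBIA and NFKB1 in that order in all 3 groups. Their ranges did not overlap, except that NFKB1 with shPAX8-1 overlapped the gene below it. In OS-LM1 cells NFKBIA, NFKB2 and BIRC3 followed RELA with sgNTC18, at 59.0, 52.8 and 52.0 TPM with overlapping ranges. With either hairpin TNFAIP3 took the second place in OS-LM1 cells, at 64.9 ± 12.2 TPM with shPAX8-1 and 96.6 ± 14.1 TPM with shPAX8-2 (SD, n = 4), and its range lay above that of the next gene. At the bottom of the order, REL and NFKBIE could not be separated in 786-M1A cells with shPAX8-1 or in OS-LM1 cells with shPAX8-2, nor TRAF1 and BIRC3 in 786-M1A cells with shPAX8-2.

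**Figure D1:**
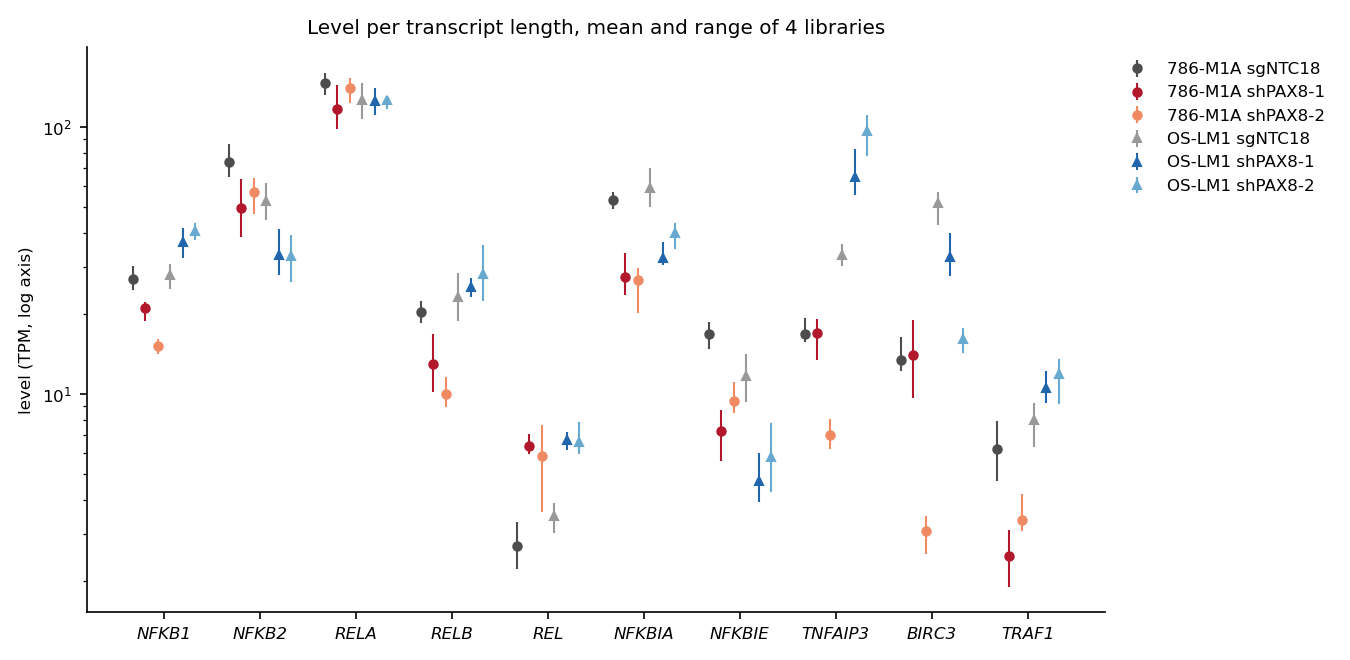
Level of each gene in TPM (log axis) in the 6 groups. Points are means of 4 libraries and bars their lowest and highest values. RELA is highest throughout, and TNFAIP3 in OS-LM1 cells rises to 96.6 TPM with shPAX8-2.

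The first comparison set each hairpin against sgNTC18 within a line. In 786-M1A cells 7 of the 10 genes differed with shPAX8-1 (1 higher, 6 lower) and 8 with shPAX8-2 (1 higher, 7 lower) at an adjusted p under 0.05. Across all genes tested 70.6% and 62.5% did so, of which 36.1% and 31.5% were higher and 34.5% and 30.9% lower. In OS-LM1 cells 8 genes differed with shPAX8-1 (4 higher, 4 lower) and 9 with shPAX8-2 (5 higher, 4 lower), where 71.4% and 68.4% of all genes did so (35.6% and 34.3% higher, 35.8% and 34.1% lower). The groups did not overlap for 5 and 7 of the 10 genes in 786-M1A cells, against 63.5% and 61.0% of all genes, and for 8 and 8 in OS-LM1 cells, against 66.3% and 61.9%. The number of NF-kB genes that changed was thus near that for all genes, while in 786-M1A cells more of them fell than rose. The median log2 fold change of the 10 genes was -0.33 and -0.70 in 786-M1A cells and 0.02 and 0.19 in OS-LM1 cells, and that of all genes lay between -0.01 and 0.03. The hairpins of a line share their sgNTC18 libraries, so the values below are set side by side and not counted as independent.

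**Figure D2:**
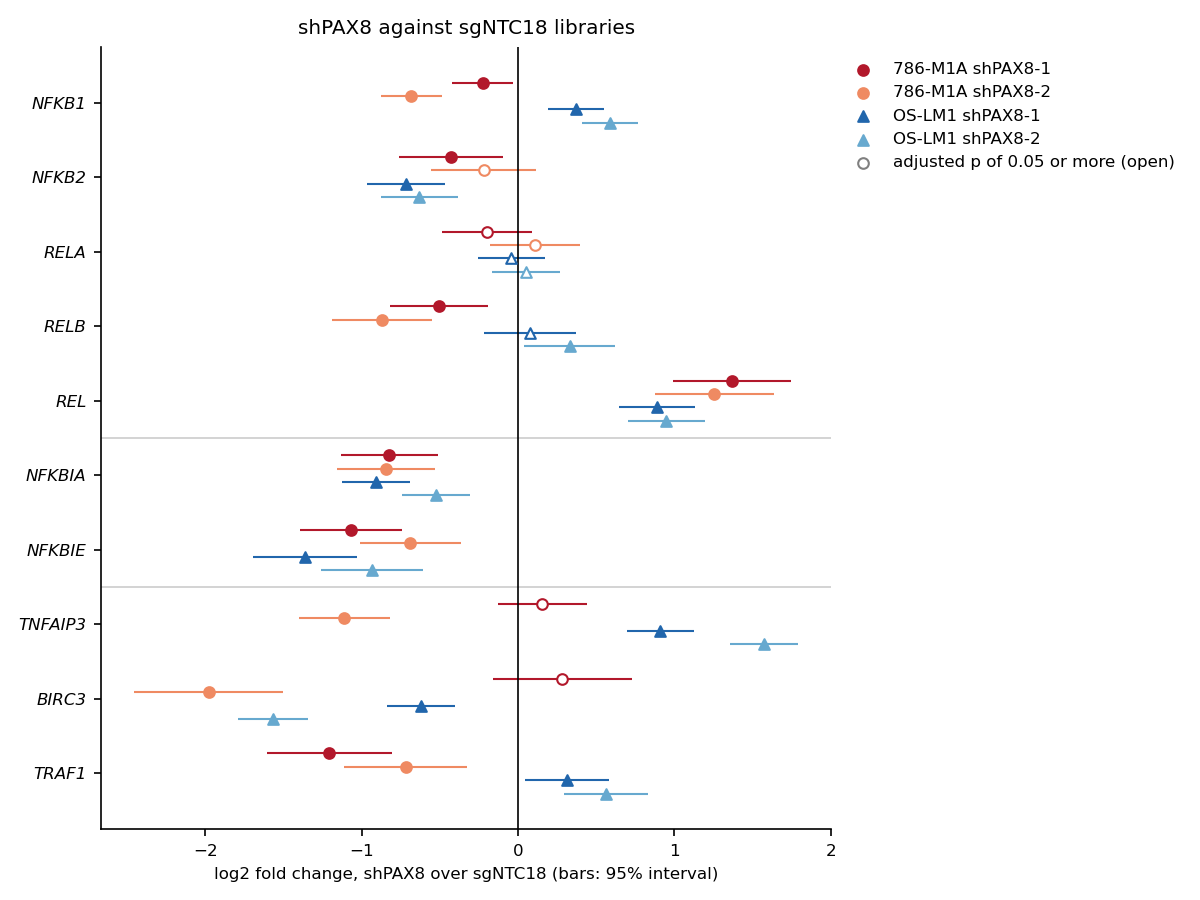
Log2 fold change of each gene with either hairpin over sgNTC18 in both lines, with 95% intervals computed from the edgeR F statistic. Filled symbols have an adjusted p under 0.05. REL lies to the right of 0 and NFKBIA and NFKBIE to its left in each comparison, whereas NFKB1 and TRAF1 lie on different sides in the lines and TNFAIP3 does so with shPAX8-2 but not with shPAX8-1.

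REL, a canonical subunit with a strong transactivation domain, was the subunit that rose with both hairpins in both lines. Of 13737 genes tested in both lines, 12.5% were called higher in all 4 comparisons with sgNTC18, as was 1 of the 10 genes. In 786-M1A cells REL stood at 13.3, 9.45, 11.7 and 11.02 CPM with sgNTC18, at 29.1, 26.4, 31.7 and 28.9 CPM with shPAX8-1 and at 33.9, 27.8, 28.5 and 17.1 CPM with shPAX8-2. In OS-LM1 cells it stood at 13.4, 17.4, 14.7 and 16.7 CPM with sgNTC18, at 32.6, 28.4, 27.6 and 29.0 CPM with shPAX8-1 and at 26.5, 35.6, 29.0 and 28.9 CPM with shPAX8-2. Every shPAX8 library of a line lay above its sgNTC18 libraries. Across all genes 31.0% and 29.6% stood entirely above sgNTC18 in 786-M1A cells, and 33.7% and 31.0% in OS-LM1 cells, for shPAX8-1 and shPAX8-2 respectively. The log2 fold change of REL was 1.37 ± 0.18 (SE, edgeR adjusted p = 5.85e-06) and 1.26 ± 0.18 (adjusted p = 2.13e-05) in 786-M1A cells. The values for OS-LM1 cells were 0.89 ± 0.12 (adjusted p = 1.29e-06) and 0.95 ± 0.12 (adjusted p = 6.55e-07). Removal of each library's trend with the GC content of genes (REL has 38.7% GC) kept these calls and lowered the value with shPAX8-1 to 0.89 in 786-M1A and 0.53 in OS-LM1 cells.

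RELA did not pass the test against sgNTC18 in either line. It ranged from 143 to 234 CPM over the 12 libraries of 786-M1A cells and from 146 to 207 CPM over those of OS-LM1 cells, and the groups overlapped. The log2 fold changes were -0.20 (95% interval -0.48 to 0.09) and 0.11 (-0.18 to 0.40) in 786-M1A cells and -0.04 (-0.26 to 0.18) and 0.05 (-0.16 to 0.27) in OS-LM1 cells, so a change of more than 0.48 in either direction lay outside each of these intervals. Without shPAX8-1 replicate 1, however, RELA was lower than sgNTC18 in 786-M1A cells (-0.33, edgeR adjusted p = 0.0251), as it was with replicates 3 and 4 alone (-0.43, adjusted p = 0.00401). Once the GC trend was removed it was higher, with 0.25 and 0.17 in 786-M1A cells and 0.34 and 0.32 in OS-LM1 cells (adjusted p = 0.00218, 0.0247, 0.00299 and 0.00422).

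NFKB1, whose product is processed to a DNA-binding subunit of the canonical dimer, moved in opposite directions in the lines. In 786-M1A cells it stood at 63.3, 54.9, 61.7 and 56.8 CPM with sgNTC18, at 50.3, 50.5, 52.1 and 46.6 CPM with shPAX8-1 and at 37.6, 35.5, 37.9 and 34.5 CPM with shPAX8-2. In OS-LM1 cells it stood at 71.4, 57.6, 68.1 and 62.3 CPM with sgNTC18, at 80.0, 86.3, 94.2 and 80.2 CPM with shPAX8-1 and at 93.8, 92.5, 106 and 96.0 CPM with shPAX8-2. All shPAX8 libraries lay below sgNTC18 in 786-M1A cells and above it in OS-LM1 cells, and the change on the log2 scale came to -0.23 (edgeR adjusted p = 0.0375) and -0.68 (adjusted p = 1.36e-05) in the former and 0.37 (adjusted p = 7.29e-04) and 0.59 (adjusted p = 5.45e-06) in the latter. The first of these calls was lost without replicate 1 or 3 of sgNTC18 or replicate 2 or 4 of shPAX8-1 (adjusted p of 0.0514 to 0.0935), and with replicates 1 and 2 of shPAX8-1 alone (-0.24, adjusted p = 0.0583). Both calls in OS-LM1 cells were lost with the GC trend removed (-0.10 and 0.23, adjusted p = 0.446 and 0.0815; NFKB1 has 36.0% GC), and the first value in 786-M1A cells became -0.78.

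NFKB2, the precursor of the non-canonical arm, fell in OS-LM1 cells from 80.1 to 111 CPM with sgNTC18 to 52.5 to 66.1 CPM with shPAX8-1 and 48.4 to 74.1 CPM with shPAX8-2. The groups did not overlap, and the log2 fold changes were -0.72 (edgeR adjusted p = 2.22e-05) and -0.63 (adjusted p = 9.84e-05). In 786-M1A cells NFKB2 passed the test with shPAX8-1 only (-0.43, adjusted p = 0.0236), with overlapping groups, and the value with shPAX8-2 was -0.22 (95% interval -0.55 to 0.11). This call was lost without replicate 2 or 3 of sgNTC18 or replicate 3 or 4 of shPAX8-1 (adjusted p of 0.0599 to 0.0771). With replicates 1 and 2 of shPAX8-1 alone the value was -0.23 (adjusted p = 0.186) and with replicates 3 and 4 alone -0.70 (adjusted p = 3.54e-04), and with the GC trend removed it turned to 0.18 (adjusted p = 0.0204; NFKB2 has 62.4% GC). In OS-LM1 cells the GC-corrected values were -0.25 and -0.32 and stayed called.

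RELB, the partner of the NFKB2 product, fell in 786-M1A cells. It stood at 21.4, 27.5, 26.1 and 23.9 CPM with sgNTC18, at 22.1, 16.6, 15.8 and 13.98 CPM with shPAX8-1 and at 14.9, 14.2, 11.9 and 12.2 CPM with shPAX8-2. Only the shPAX8-2 libraries lay wholly below sgNTC18, since replicate 1 of shPAX8-1 was within its range. The log2 fold change was -0.51 ± 0.15 (SE, edgeR adjusted p = 0.00612) and -0.87 ± 0.15 (adjusted p = 1.27e-04), and the first value became 0.17 (adjusted p = 0.166) with the GC trend removed (RELB has 64.9% GC). In OS-LM1 cells RELB ranged from 24.2 to 48.1 CPM over the 12 libraries, with values of 0.08 (95% interval -0.22 to 0.37) for shPAX8-1 and 0.33 (adjusted p = 0.0436) for shPAX8-2. The last call was lost on leaving out any 1 of 8 libraries (sgNTC18 replicates 2, 3 and 4, shPAX8-1 replicates 1, 2 and 3, and shPAX8-2 replicates 1 and 3), where the log2 fold change ran from 0.18 to 0.37, and with DESeq2 (0.32, adjusted p = 0.0541). With the GC trend removed RELB was called with both hairpins in OS-LM1 cells, at 0.57 (adjusted p = 6.67e-05) and 0.65 (adjusted p = 1.51e-05).

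Both IkB genes fell with both hairpins in both lines. They were the 2 of the 10 genes called lower in all 4 comparisons with sgNTC18, as were 14.6% of 13737 genes tested in both lines. NFKBIA encodes the IkB protein that NF-kB re-induces after each round of signalling. In 786-M1A cells NFKBIA stood at 39.0, 48.3, 47.0 and 42.9 CPM with sgNTC18, at 30.3, 25.1, 20.8 and 22.5 CPM with shPAX8-1 and at 26.1, 26.8, 18.2 and 25.99 CPM with shPAX8-2. Levels of NFKBIA in OS-LM1 cells stood at 61.8, 44.3, 55.2 and 46.9 CPM with sgNTC18, at 28.3, 29.0, 25.9 and 29.6 CPM with shPAX8-1 and at 36.7, 31.5, 39.8 and 36.1 CPM with shPAX8-2. All shPAX8 libraries lay below the sgNTC18 libraries of their line. Across all genes 32.5% and 31.4% stood entirely below sgNTC18 in 786-M1A cells and 32.6% and 30.9% in OS-LM1 cells. NFKBIA changed on the log2 scale by -0.82 ± 0.15 (SE, edgeR adjusted p = 1.34e-04) and -0.84 ± 0.15 (adjusted p = 1.52e-04) in 786-M1A cells. The values for OS-LM1 cells were -0.91 ± 0.10 (adjusted p = 2.13e-07) and -0.52 ± 0.10 (adjusted p = 1.72e-04). The direction and the calls were kept with the GC trend removed, with values from -0.38 to -0.82 (NFKBIA has 52.1% GC).

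NFKBIE encodes IkB epsilon, a further inhibitor that NF-kB induces. In 786-M1A cells NFKBIE stood at 19.4, 26.2, 25.4 and 22.0 CPM with sgNTC18, at 12.3, 12.8, 8.31 and 10.2 CPM with shPAX8-1 and at 16.2, 14.5, 12.8 and 13.3 CPM with shPAX8-2. OS-LM1 cells had NFKBIE at 20.8, 13.7, 17.1 and 16.8 CPM with sgNTC18, at 6.51, 7.83, 6.54 and 6.15 CPM with shPAX8-1 and at 7.84, 6.45, 11.8 and 8.90 CPM with shPAX8-2. Again no shPAX8 library reached the lowest sgNTC18 library of its line. The log2 fold change was -1.07 ± 0.15 (SE, edgeR adjusted p = 1.56e-05) and -0.69 ± 0.15 (adjusted p = 0.00105) in 786-M1A cells. It was -1.36 ± 0.16 (adjusted p = 2.79e-07) and -0.93 ± 0.16 (adjusted p = 2.65e-05) in OS-LM1 cells. With the GC trend removed (NFKBIE has 61.0% GC) the calls held, and the value with shPAX8-1 in 786-M1A cells shrank to -0.50.

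TNFAIP3 encodes a ubiquitin-editing enzyme that ends signalling from TNF and Toll-like receptors. In 786-M1A cells TNFAIP3 stood at 39.3, 49.4, 41.5 and 40.3 CPM with sgNTC18, at 52.6, 35.9, 48.6 and 49.8 CPM with shPAX8-1 and at 21.6, 21.2, 17.3 and 17.5 CPM with shPAX8-2. TNFAIP3 in OS-LM1 cells was at 95.4, 82.5, 99.1 and 80.3 CPM with sgNTC18, at 170, 198, 156 and 159 CPM with shPAX8-1 and at 265, 261, 306 and 227 CPM with shPAX8-2. In 786-M1A cells the shPAX8-1 libraries overlapped sgNTC18 and the shPAX8-2 libraries lay wholly below it, while in OS-LM1 cells all shPAX8 libraries lay above sgNTC18. TNFAIP3 thus fell with shPAX8-2 in 786-M1A cells (a log2 change of -1.11 ± 0.14, SE, edgeR adjusted p = 5.83e-06) and rose in OS-LM1 cells (0.91 ± 0.10, adjusted p = 1.65e-07, and 1.57 ± 0.10, adjusted p = 1.05e-10). With shPAX8-1 in 786-M1A cells the value was 0.15 (95% interval -0.13 to 0.44).

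BIRC3 encodes a ubiquitin ligase of the inhibitor of apoptosis family that acts in the TNF receptor complex. In 786-M1A cells BIRC3 stood at 42.5, 34.8, 34.6 and 33.4 CPM with sgNTC18, at 29.1, 31.1, 59.9 and 54.5 CPM with shPAX8-1 and at 9.90, 8.47, 10.7 and 7.40 CPM with shPAX8-2. Levels of BIRC3 in OS-LM1 cells stood at 163, 126, 167 and 151 CPM with sgNTC18, at 93.5, 112, 106 and 89.7 CPM with shPAX8-1 and at 51.7, 58.8, 46.9 and 47.0 CPM with shPAX8-2. With shPAX8-2 BIRC3 lay far below sgNTC18 in both lines, and with shPAX8-1 it lay below in OS-LM1 cells and on both sides in 786-M1A cells. The log2 fold change was -1.98 ± 0.22 (SE, edgeR adjusted p = 2.35e-06) with shPAX8-2 in 786-M1A cells, and -0.62 ± 0.10 (adjusted p = 2.49e-05) and -1.57 ± 0.11 (adjusted p = 1.66e-10) in OS-LM1 cells. With shPAX8-1 in 786-M1A cells it was 0.28 (95% interval -0.16 to 0.73), and it was -0.28 (adjusted p = 0.0993) with replicates 1 and 2 of that group alone, 0.67 (adjusted p = 1.97e-04) with replicates 3 and 4 alone, 0.43 (adjusted p = 0.0453) without replicate 1 and -0.36 (adjusted p = 0.00413) with the GC trend removed (BIRC3 has 35.8% GC). With the GC trend removed the value with shPAX8-1 in OS-LM1 cells grew to -1.09.

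TRAF1, an adaptor of TNF receptors that binds the inhibitor of apoptosis proteins, had the lowest mean TPM of the 3 feedback genes with sgNTC18, at 6.21 TPM in 786-M1A and 7.96 TPM in OS-LM1 cells. In 786-M1A cells TRAF1 stood at 10.0, 17.6, 14.5 and 12.9 CPM with sgNTC18, at 7.27, 6.17, 5.30 and 4.70 CPM with shPAX8-1 and at 10.1, 7.28, 7.54 and 7.998 CPM with shPAX8-2. OS-LM1 cells had TRAF1 at 21.4, 16.7, 21.1 and 14.6 CPM with sgNTC18, at 21.8, 24.1, 25.3 and 22.0 CPM with shPAX8-1 and at 28.3, 25.6, 32.2 and 22.5 CPM with shPAX8-2. TRAF1 was lower with shPAX8-1 than with sgNTC18 in all 786-M1A libraries, overlapped sgNTC18 at 1 library with shPAX8-2, and was higher in all shPAX8 libraries of OS-LM1 cells. TRAF1 changed on the log2 scale by -1.21 ± 0.19 (SE, edgeR adjusted p = 3.52e-05) and -0.72 ± 0.18 (adjusted p = 0.00336) in 786-M1A cells and 0.31 ± 0.13 (adjusted p = 0.0345) and 0.56 ± 0.13 (adjusted p = 6.31e-04) in OS-LM1 cells. The third of these calls was lost without replicate 2 or 4 of sgNTC18 or replicate 2 or 3 of shPAX8-1 (adjusted p of 0.0822 to 0.121) and with all 24 libraries in 1 fit (0.34, adjusted p = 0.062), and with the GC trend removed its value was 0.65 (adjusted p = 6.59e-05). Annotated genes overlap NFKB1 (NFKB1-AS1), RELA (RELA-DT), REL (RNU4-51P), TNFAIP3 (WAKMAR2) and TRAF1 (PHF19). Whether the counting used strand is not given in the sources used here, so reads of these neighbours may be included. Among the 10 genes only REL and BIRC3 had expected counts that were not whole numbers. Examples are 323.69 for REL and 630.01 for BIRC3 in replicates 1 and 2 of 786-M1A sgNTC18, so these genes may share reads with other loci.

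**Figure D3:**
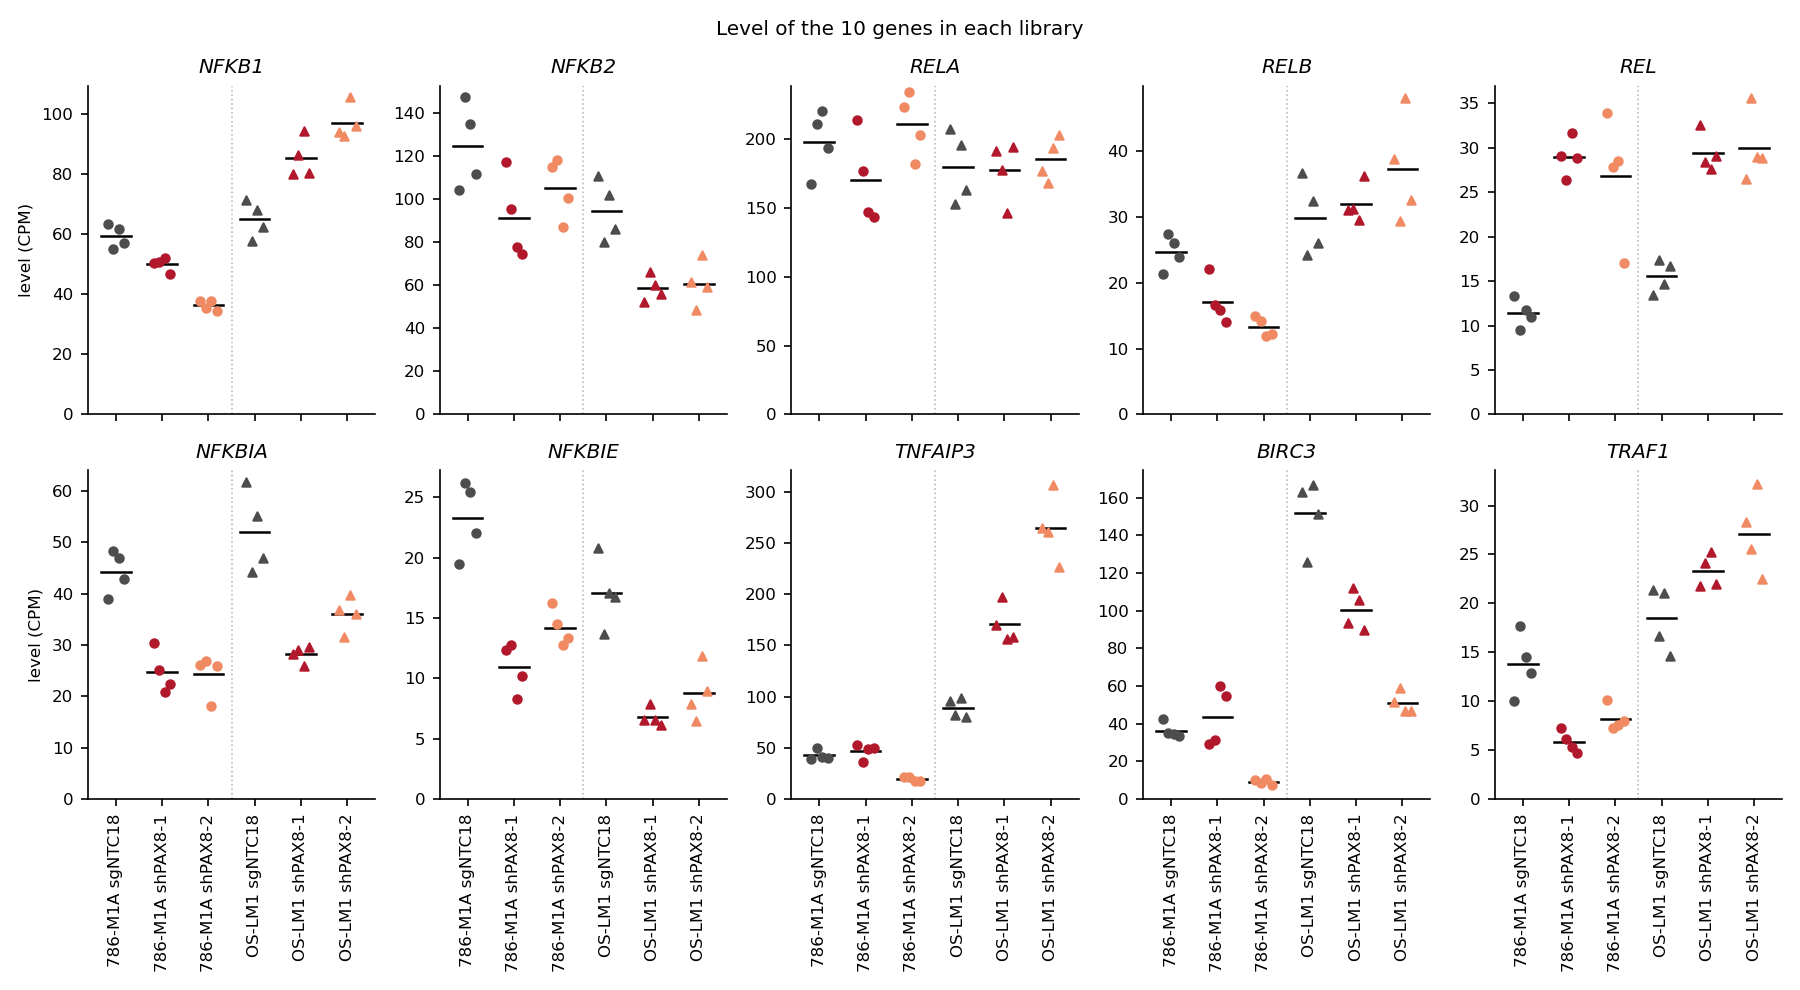
Level of each gene in CPM (linear axes that start at 0) in each of the 24 libraries, with circles for 786-M1A, triangles for OS-LM1 and a line at the mean of each group of 4. REL is higher with both hairpins in both lines, NFKBIA and NFKBIE are lower, and the 4 BIRC3 values of 786-M1A cells with shPAX8-1 fall at 29.1 to 31.1 and 54.5 to 59.9 CPM.

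The second comparison set shPAX8-1 against shPAX8-2. The fold change is taken between the hairpins, and the sgNTC18 libraries of the line enter the fit through the normalisation and the estimate of spread. Across all genes with a known GC content, its rank correlation with that content was -0.557 in 786-M1A and -0.207 in OS-LM1 cells. In 786-M1A cells 4 of the 10 genes differed (3 higher and 1 lower with shPAX8-1), against 47.1% of all genes tested (24.2% higher, 22.9% lower). In OS-LM1 cells 3 did so (1 higher, 2 lower), against 29.1% (12.4% higher, 16.7% lower). BIRC3 was higher with shPAX8-1 in both lines, by a log2 fold change of 2.26 ± 0.23 (SE, edgeR adjusted p = 5.90e-06) in 786-M1A and 0.95 ± 0.11 (adjusted p = 2.09e-06) in OS-LM1 cells, and the groups did not overlap, as was so for 36.3% of all genes in 786-M1A cells (18.0% higher, 18.3% lower) and 24.9% in OS-LM1 cells (12.4% higher, 12.6% lower). With replicates 1 and 2 of 786-M1A shPAX8-1 alone the first value was 1.73 and with replicates 3 and 4 alone 2.65. TNFAIP3 differed in opposite directions, with 1.26 ± 0.14 (adjusted p = 1.21e-05) in 786-M1A and -0.66 ± 0.10 (adjusted p = 7.01e-05) in OS-LM1 cells, where again no library of one hairpin reached the range of the other. The difference in TNFAIP3 between hairpins was thus itself different between lines, by -1.90 ± 0.17 on the log2 scale (SE, adjusted p = 2.62e-08).

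NFKB1 was higher with shPAX8-1 in 786-M1A cells (0.46 ± 0.09, SE, edgeR adjusted p = 0.00128), with separate groups, and the value in OS-LM1 cells was -0.22 (95% interval -0.40 to -0.04, adjusted p = 0.0628), or -0.33 (adjusted p = 0.033) with the GC trend removed. With the GC trend removed the value in 786-M1A cells was -0.0027 (adjusted p = 0.99). In OS-LM1 cells NFKBIA was lower with shPAX8-1 (-0.39 ± 0.11, SE, adjusted p = 0.00902), a call lost without replicate 3 of shPAX8-1 or replicate 3 of shPAX8-2 (adjusted p = 0.0528 and 0.0546). TRAF1 was lower with shPAX8-1 in 786-M1A cells (-0.49 ± 0.19, SE, adjusted p = 0.0482), a call lost on leaving out any 1 of 9 libraries (sgNTC18 replicates 3 and 4, shPAX8-1 replicates 2, 3 and 4, and the 4 replicates of shPAX8-2, with values of -0.38 to -0.55) and with the replicate number as a block (adjusted p = 0.0569). Leaving out replicate 1 of shPAX8-1 raised the number of called genes in 786-M1A cells from 4 to 7. NFKB2, RELA, RELB, REL and NFKBIE did not pass the test in either line, but several of these results depended on the setting. In OS-LM1 cells NFKBIE was called without replicate 2 of shPAX8-2 (-0.54, edgeR adjusted p = 0.0105). The other changes of call for these genes were in 786-M1A cells. RELB was called with the GC trend removed (0.96, adjusted p = 2.81e-06), with replicates 1 and 2 of shPAX8-1 alone (0.54, adjusted p = 0.0157) and with DESeq2 (0.37, adjusted p = 0.0412). NFKB2 was called with the GC trend removed (0.32, adjusted p = 8.51e-04) and, in the other direction, with replicates 3 and 4 alone (-0.48, adjusted p = 0.00887). RELA (-0.54, adjusted p = 9.85e-04) and NFKBIE (-0.62, adjusted p = 0.00312) were called with replicates 3 and 4 alone, and TRAF1 was -0.29 (adjusted p = 0.339) with replicates 1 and 2 alone. RELA was also called with all 24 libraries in 1 fit (-0.31, edgeR adjusted p = 0.049). Leaving out replicate 1 of shPAX8-1 (-0.44) or replicate 3 of shPAX8-2 (-0.38) had the same result for RELA. NFKBIE was called without replicate 1 or 2 of shPAX8-1 or replicate 3 of shPAX8-2 (-0.46 to -0.43). RELB was called without replicate 4 of shPAX8-1 (0.45) and NFKB2 without its replicate 1 (-0.36). For REL, the subunit that rose against sgNTC18, the 95% interval of the difference between hairpins was -0.26 to 0.48 in 786-M1A and -0.30 to 0.18 in OS-LM1 cells. PAX8 itself had a lower level under shPAX8-1 than under shPAX8-2 in 786-M1A cells (-1.18 ± 0.15, SE, adjusted p = 4.01e-05), and in OS-LM1 cells its difference was -0.05 (95% interval -0.31 to 0.21).

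**Figure D4:**
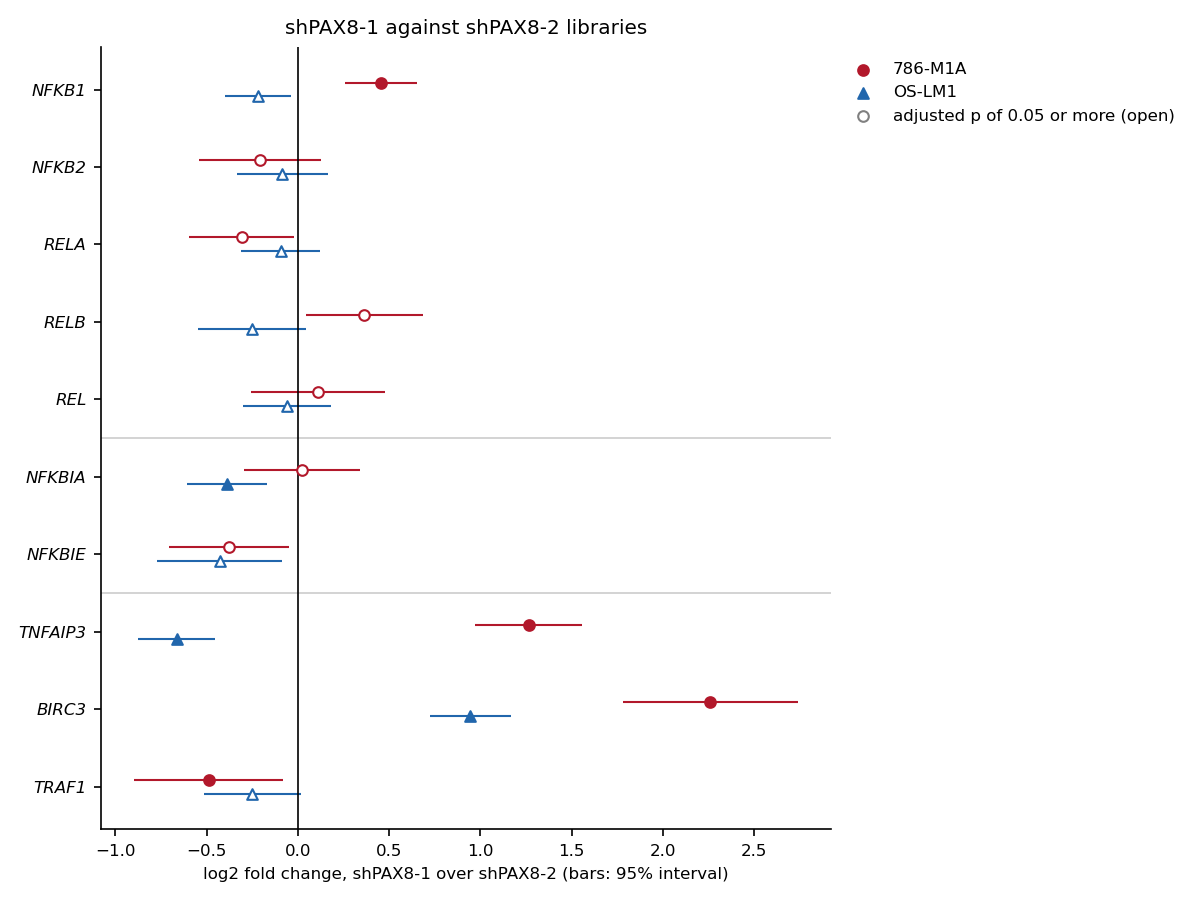
Log2 fold change of each gene with shPAX8-1 over shPAX8-2 in 786-M1A (circles) and OS-LM1 (triangles), with 95% intervals computed from the edgeR F statistic. Filled symbols have an adjusted p under 0.05. BIRC3 lies to the right of 0 in both lines, at 2.26 and 0.95, and TNFAIP3 on different sides, at 1.26 and -0.66.

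The lines were then compared with each other. With sgNTC18, 6 of the 10 genes differed between OS-LM1 and 786-M1A cells (4 higher and 2 lower in OS-LM1), against 63.0% of all genes (32.0% higher, 31.0% lower). BIRC3 and TNFAIP3 had the largest changes on the log2 scale, 2.06 ± 0.17 (SE, edgeR adjusted p = 7.30e-11) and 1.07 ± 0.12 (adjusted p = 1.95e-08), higher in every OS-LM1 library. The groups did not overlap for 62.0% of all genes (31.7% higher, 30.2% lower). REL (0.45, adjusted p = 0.0113) and TRAF1 (0.43, adjusted p = 0.0224) were higher and NFKB2 (-0.39, adjusted p = 0.0224) and NFKBIE (-0.45, adjusted p = 0.0168) lower in OS-LM1 cells. The calls of TRAF1, NFKB2 and NFKBIE were lost on leaving out any 1 of several sgNTC18 libraries. For TRAF1 these were replicates 1 and 4 of 786-M1A and 1 and 3 of OS-LM1 (0.30 to 0.40), for NFKB2 replicates 2 and 3 of 786-M1A and 2 and 4 of OS-LM1 (-0.35 to -0.30), and for NFKBIE replicates 2 and 3 of 786-M1A and 2 of OS-LM1 (-0.40 to -0.35). The calls of REL, NFKB2 and NFKBIE were also lost with the GC trend removed (0.17, 0.05 and -0.07, adjusted p = 0.305, 0.607 and 0.544), while RELB was called (0.84, adjusted p = 4.25e-08).

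With the mean of both hairpins, 8 of the 10 genes differed between the lines (6 higher and 2 lower in OS-LM1), against 83.1% of all genes (41.7% higher, 41.5% lower). TNFAIP3 was higher in OS-LM1 cells by 2.82 ± 0.09 on the log2 scale (SE, edgeR adjusted p = 2.12e-20), BIRC3 by 1.85 ± 0.13 (adjusted p = 3.05e-13) and TRAF1 by 1.85 ± 0.12 (adjusted p = 9.07e-14). RELB (1.19 ± 0.11, adjusted p = 1.85e-10) and NFKB1 (1.09 ± 0.06, adjusted p = 3.92e-15) were higher too, with NFKBIA at 0.38 (adjusted p = 5.96e-04), whereas NFKB2 was lower by -0.71 (adjusted p = 7.32e-07) and NFKBIE by -0.69 (adjusted p = 8.57e-06). RELA and REL did not pass the test, with 95% intervals of -0.25 to 0.12 and -0.12 to 0.30. Both were called with the GC trend removed, RELA at 0.19 (adjusted p = 0.00387) and REL at -0.27 (adjusted p = 0.0125).

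Whether the difference between shPAX8 and sgNTC18 libraries itself differed between lines was tested as an interaction in a fit of all 24 libraries. This held for 4 of the 10 genes, each with the higher value in OS-LM1 cells, against 58.7% of all genes (29.9% higher, 28.8% lower). The log2 fold change in OS-LM1 cells less that in 786-M1A cells was 1.75 ± 0.15 for TNFAIP3 (SE, edgeR adjusted p = 1.92e-10), 1.43 ± 0.20 for TRAF1 (adjusted p = 9.80e-07), 0.96 ± 0.11 for NFKB1 (adjusted p = 1.74e-08) and 0.92 ± 0.19 for RELB (adjusted p = 1.72e-04). These are differences of signed values and do not mean a larger change in OS-LM1 cells. For the 6 genes that were not called, the interaction was -0.36 for REL (95% interval -0.73 to 0.02), -0.32 for NFKB2 (-0.69 to 0.05), 0.08 for RELA (-0.24 to 0.40), 0.15 for NFKBIA (-0.18 to 0.47), -0.24 for NFKBIE (-0.65 to 0.17) and -0.22 for BIRC3 (-0.65 to 0.21). That of BIRC3 was 0.01 with replicates 1 and 2 of 786-M1A shPAX8-1 alone and -0.45 (adjusted p = 0.00865) with replicates 3 and 4 alone, and that of NFKB2 was -0.48 (adjusted p = 0.0153) with replicates 1 and 2 alone. PAX8 also fell less in OS-LM1 cells, with an interaction of 1.87 ± 0.17 (SE, adjusted p = 7.53e-10), so the line and the depth of PAX8 depletion cannot be told apart here. Without replicate 4 of 786-M1A shPAX8-2 the value of REL was -0.44 (adjusted p = 0.0129). With the GC trend removed 7 genes were called, NFKB2 (-0.27), REL (-0.45) and BIRC3 (-0.31) in addition. The interaction of line with the difference between hairpins was called for 3 of the 10 genes, against 27.2% of all genes (12.7% higher, 14.5% lower), namely TNFAIP3 (above), BIRC3 (-1.29 ± 0.25, SE, adjusted p = 4.45e-04) and NFKB1 (-0.64 ± 0.12, adjusted p = 3.52e-04). That of NFKB1 was lost with the GC trend removed (-0.34, adjusted p = 0.2), where RELB (-1.07, adjusted p = 6.66e-06) and NFKBIA (-0.56, adjusted p = 0.00205) were called. RELB was also called by DESeq2 (-0.58, adjusted p = 0.0413), with replicates 1 and 2 of 786-M1A shPAX8-1 alone (-0.76, adjusted p = 0.023) and on leaving out any 1 of 5 libraries (replicate 4 of 786-M1A shPAX8-1, replicate 1 of 786-M1A shPAX8-2, replicate 4 of OS-LM1 shPAX8-1, and replicates 2 and 4 of OS-LM1 shPAX8-2, with values of -0.68 to -0.64). RELA was called with replicates 3 and 4 alone (0.49, adjusted p = 0.0252). The value of BIRC3 was -0.76 with replicates 1 and 2 of 786-M1A shPAX8-1 alone and -1.66 with replicates 3 and 4 alone.

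Other genes of the pathway were described as 5 lists, read against the shares for all genes given above. Single genes of these lists are named only for comparisons in which they were among the called genes with the largest change. Where a hairpin or line is left out for a named gene, this does not mean that the gene was unchanged there. Of 26 cytokine, adhesion and survival genes that NF-kB induces, 19 rose and 4 fell with shPAX8-1 in OS-LM1 cells and 16 rose and 5 fell with shPAX8-2, with median log2 fold changes of 0.69 and 1.01. In 786-M1A cells 24 were tested, of which 10 rose and 9 fell with shPAX8-1 and 6 rose and 11 fell with shPAX8-2, with medians of -0.08 and -0.38. In OS-LM1 cells the neutrophil chemokine CXCL8 rose from 28.0 ± 6.52 CPM with sgNTC18 to 888 ± 212 CPM with shPAX8-1 and 780 ± 123 CPM with shPAX8-2 (SD, n = 4), and the monocyte chemokine CCL2 from 33.3 ± 6.14 to 454 ± 101 and 995 ± 190 CPM. CSF2, which encodes the growth factor GM-CSF, rose in OS-LM1 cells from 1.99 ± 0.36 to 17.6 ± 2.35 CPM with shPAX8-1 (edgeR adjusted p = 6.81e-13) but fell in 786-M1A cells from 12.1 ± 2.29 to 2.28 ± 0.71 CPM with shPAX8-1 (adjusted p = 8.25e-08) and 0.46 ± 0.04 CPM with shPAX8-2 (adjusted p = 2.27e-09). The interaction with the line was 6.07 for CSF2, 4.74 for CCL2 and 4.03 for CXCL8 on the log2 scale (adjusted p = 3.41e-17, 2.19e-15 and 1.85e-12). The chemokine CCL5 fell in 786-M1A cells from 9.96 ± 1.06 CPM to 0.74 ± 0.36 and 0.44 ± 0.35 CPM. Between hairpins, 12 of the 24 genes were higher and 2 lower with shPAX8-1 in 786-M1A cells, among them CXCL8 at 48.6 ± 17.7 against 6.12 ± 0.81 CPM (adjusted p = 8.01e-07), and 10 were higher and 6 lower of 26 in OS-LM1 cells. The counts and named genes of the 5 lists were not examined under the other settings, such as removal of the GC trend.

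Of the 10 ligands listed, 5 were tested in 786-M1A and 6 in OS-LM1 cells. There 2 rose and 2 fell with each hairpin in 786-M1A cells, and 4 rose and 1 fell in OS-LM1 cells. IL1B, a cytokine that activates NF-kB through its receptor, was at 0.10 ± 0.14 CPM with sgNTC18, 20.9 ± 2.28 CPM with shPAX8-1 and 4.16 ± 0.70 CPM with shPAX8-2 in 786-M1A cells (SD, n = 4), and at 0.27 ± 0.07, 103 ± 13.1 and 39.3 ± 4.15 CPM in OS-LM1 cells. Its level under shPAX8-1 exceeded that under shPAX8-2 in both lines (edgeR adjusted p = 1.78e-05 and 2.18e-08). TNFSF10, the death ligand TRAIL, fell from 210 ± 13.6 CPM to 36.7 ± 4.51 and 33.1 ± 5.02 CPM in OS-LM1 cells, whereas in 786-M1A cells it fell with shPAX8-1 (194 ± 23.3 against 295 ± 30.9 CPM) and rose with shPAX8-2 (620 ± 40.3 CPM). Among 20 receptors and adaptors, of which 19 were tested in 786-M1A cells, 2 rose and 12 fell with shPAX8-1 and 3 rose and 9 fell with shPAX8-2 there, while in OS-LM1 cells 8 rose and 6 fell, and 10 rose and 4 fell. The IL-1 co-receptor IL1RAP rose in both lines, from 23.8 ± 2.16 to 170 ± 41.1 and 166 ± 15.2 CPM in 786-M1A and from 23.1 ± 3.08 to 130 ± 6.65 and 140 ± 15.4 CPM in OS-LM1 cells. The IL-1 receptor IL1R1 rose in OS-LM1 cells from 71.2 ± 4.46 to 309 ± 20.05 and 315 ± 21.2 CPM. TRADD, the adaptor of the TNF receptor, fell in 786-M1A cells from 7.49 ± 1.06 to 0.51 ± 0.13 and 1.36 ± 0.17 CPM.

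Of 16 genes of the kinase and ubiquitin machinery, 6 rose and 8 fell with shPAX8-1 and 5 rose and 9 fell with shPAX8-2 in 786-M1A cells, and 7 rose and 8 fell, and 7 rose and 7 fell, in OS-LM1 cells. IKBKG, the regulatory subunit of the IkB kinase, fell with log2 fold changes of -1.97 and -2.06 in 786-M1A and -2.18 and -2.16 in OS-LM1 cells. It has a near-identical pseudogene copy with which it may share reads, so its level is uncertain. Between hairpins 0 of the 16 genes were called in OS-LM1 cells by edgeR, while in 786-M1A cells 6 were higher and 6 lower with shPAX8-1. Of 12 genes listed as other inhibitors, 3 rose and 6 fell with shPAX8-1 and 3 rose and 5 fell with shPAX8-2 in 786-M1A cells, and 3 rose and 5 fell, and 4 rose and 4 fell, in OS-LM1 cells. The list includes atypical IkB genes, and a place on it does not mean that the product only inhibits NF-kB. NFKBIB, a further IkB gene, fell in 786-M1A cells from 24.3 ± 4.62 to 5.75 ± 1.69 and 5.81 ± 1.27 CPM and with shPAX8-2 in OS-LM1 cells from 29.8 ± 4.78 to 11.05 ± 2.80 CPM. NFKBIZ, an atypical IkB gene induced by IL-1, fell in OS-LM1 cells from 153 ± 22.7 to 48.9 ± 3.42 and 56.4 ± 12.5 CPM and with shPAX8-2 in 786-M1A cells from 132 ± 9.25 to 57.6 ± 1.197 CPM. The inhibitor TNIP1, a partner of TNFAIP3, fell with shPAX8-2 in 786-M1A cells from 257 ± 24.6 to 113 ± 11.4 CPM.

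**Figure D5:**
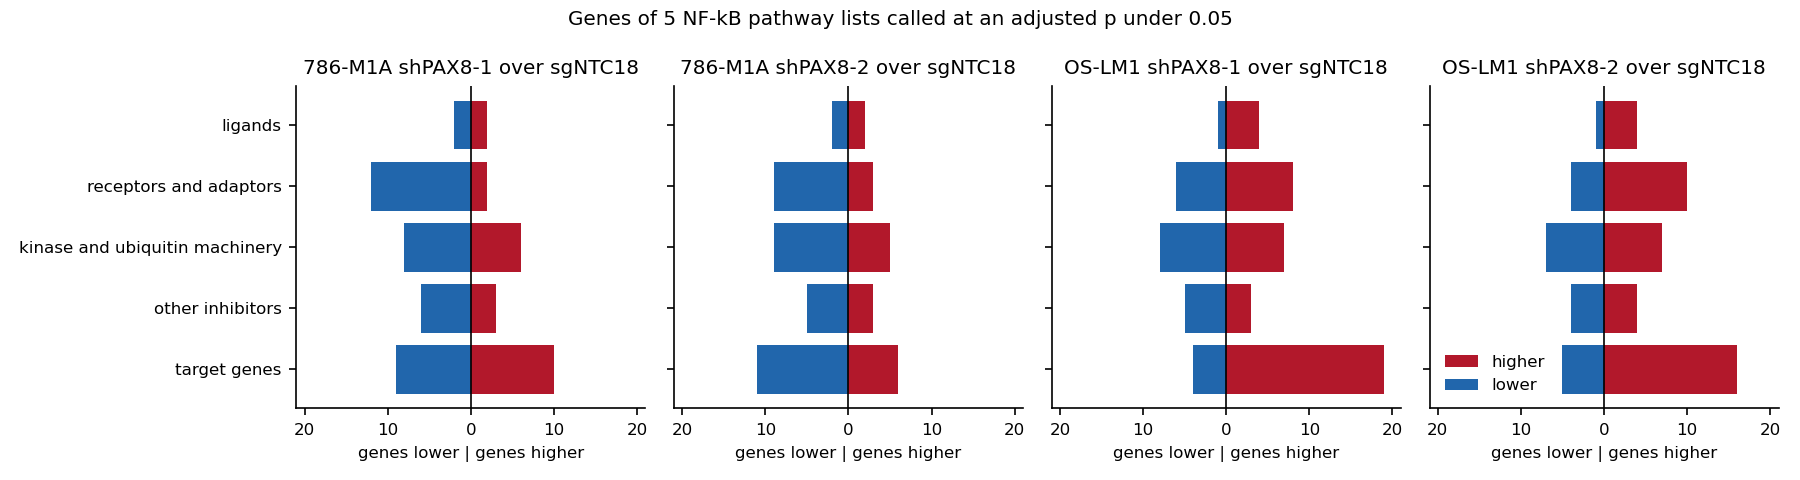
Number of genes of each pathway list that were higher (red, to the right) or lower (blue, to the left) with a hairpin than with sgNTC18 at an adjusted p under 0.05, in 4 panels by line and hairpin. The target genes have 19 higher and 4 lower with shPAX8-1 in OS-LM1 cells and 6 higher and 11 lower with shPAX8-2 in 786-M1A cells.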

How the data were processed

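RNA-seq covered 24 libraries of 2 ccRCC lines. The values deposited by the authors are expected counts and TPM per gene, made by RSEM after Bowtie2 alignment to hg38. The versions and the annotation release are not given in the sources used here. The labels name a KAPA stranded kit and the study's methods Lexogen kits. FPKM was not used.

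Expected counts were rounded, filtered with filterByExpr and scaled by TMM. Tests used edgeR 4.0.16 (robust quasi-likelihood test, R 4.3.3) and Benjamini-Hochberg adjustment over all genes tested (14452 in 786-M1A, 15049 in OS-LM1, 15665 with both lines). A line's 12 libraries entered each construct comparison, and all 24 those between lines. SE is the absolute log2 fold change over the square root of F. CPM uses TMM library sizes of all 24 libraries. The deposited TPM served to compare genes. The procedure was tested on simulated data in which far fewer genes changed than were called here, so that test does not cover the present setting. Replicates of a group differed by more than sampling noise (chi-square per gene of 3.73 to 89.5) and were each counted once. The highest value was that of replicates 3 and 4 of OS-LM1 shPAX8-2. Replicate numbers were not taken to pair libraries. The alternatives were DESeq2 1.42.0, its size factors in edgeR, no filter beyond 1 count, the replicate number as a block, a spline on GC content subtracted per library, an absolute log2 fold change over 0.58, all libraries in 1 fit, and each library left out. The GC content of a gene was that of its longest GENCODE v44 transcript, which may differ from the transcripts that were counted. The use of 786-M1A shPAX8-1 replicates 1 and 2 or 3 and 4 alone was added after seeing the data.

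The members and lists were chosen with earlier results of these data known. Named were PAX8, the 10 members and, per pathway list and comparison, from the 3 called genes with the largest change at an average log2 CPM of at least 1.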

Additional observations from a re-analysis of the deposited data

Results flagged for a closer look

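In a group of 4 libraries, a value was singled out where its gap to the nearest other library was a large part of the range of the group (Dixon's criterion). NFKBIA in 786-M1A cells with shPAX8-2 stood at 18.2 CPM in replicate 3, below the other libraries. BIRC3 in 786-M1A cells with sgNTC18 stood at 42.5 CPM in replicate 1, above the other libraries. These were 2 of 66 groups examined, and chance singles out about 1 group in 20.

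The difference between shPAX8 and sgNTC18 libraries differed between lines by a test of the interaction for several genes. It was 0.96 for NFKB1, 0.92 for RELB, 1.75 for TNFAIP3 and 1.43 for TRAF1 in log2 units, OS-LM1 less 786-M1A, and 6.07 for CSF2, 4.74 for CCL2 and 4.03 for CXCL8. PAX8 differed by 1.87 in the same test, so the line and the depth of PAX8 depletion cannot be told apart. The difference between shPAX8-1 and shPAX8-2 also differed between lines, by -0.64 for NFKB1, -1.90 for TNFAIP3, -1.29 for BIRC3 and 1.16 for PAX8.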

How the results depend on the processing

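Of 660 values of the NF-kB genes under settings other than leaving out a library, 589 kept direction and call. A further 16 kept direction but were no longer called, 25 kept direction and became called, and 30 changed sign, with or without a change of call. Of 1360 values with 1 library left out these numbers were 1283, 42, 16 and 19. The log2 fold change of all genes with a known GC content followed that content to an unlike degree. The rank correlation was -0.363 with shPAX8-1 and -0.098 with shPAX8-2 against sgNTC18 in 786-M1A cells. In OS-LM1 cells these values were -0.321 and -0.275. Between hairpins it was -0.557 in 786-M1A and -0.207 in OS-LM1 cells. With the GC trend removed, 62 values kept direction and call, 5 were no longer called, 11 became called and 22 changed sign. Those that changed sign were the following. Against sgNTC18 these were NFKB2 (0.18), RELA (0.25), RELB (0.17) and BIRC3 (-0.36) with shPAX8-1 in 786-M1A cells and NFKB1 (-0.10) and RELA (0.34) with shPAX8-1 in OS-LM1 cells. Between hairpins these were NFKB1 (-0.0027), NFKB2 (0.32), RELA (0.075), REL (-0.27) and NFKBIE (0.12) in 786-M1A and NFKB2 (0.073) and RELA (0.013) in OS-LM1 cells. Between lines these were NFKB1 (-0.19), NFKB2 (0.051) and RELA (0.032) with sgNTC18, RELA (0.19) and REL (-0.27) with the hairpins, and NFKB2 (-0.28), RELA (-0.089), REL (0.13) and TRAF1 (-0.0032) in the interaction of line and hairpin. The interaction of line and depletion then called 7 of the 10 genes. The cause was not tested.

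An absolute log2 fold change over 0.58 left 4 genes called with shPAX8-1 in 786-M1A cells, 2 between hairpins in 786-M1A cells and 2 between lines with sgNTC18, and 4335 and 1978 of all genes between hairpins in 786-M1A and OS-LM1 cells, since fewer genes pass it by construction. With 786-M1A shPAX8-1 replicates 1 and 2 alone, BIRC3 was -0.28 against sgNTC18, NFKB2 0.016 between hairpins, RELA -0.065 and BIRC3 0.0055 in the interaction with depletion and NFKB2 -0.071 in that with the hairpin, and all genes called were 3869 between hairpins and 2579 in the last interaction. With replicates 3 and 4 alone, 7 of the 10 genes were called between hairpins in 786-M1A cells with NFKBIA at -0.18, RELA was 0.037 between lines with the hairpins, and the interaction of line and hairpin called 6817 genes with NFKBIE at 0.23. DESeq2 also called RELB (0.37) and NFKBIE (-0.37) between hairpins in 786-M1A cells.

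With 1 library left out, sign changes or moved counts lay in these ranges. Between hairpins in 786-M1A cells 3 to 7 of the 10 genes were called, REL was -0.056 to 0.24 and NFKBIA -0.10 to 0.10. RELA in OS-LM1 cells was -0.088 to 0.056 with shPAX8-1, -0.024 to 0.12 with shPAX8-2 and -0.14 to 0.014 between hairpins, where NFKB2 was -0.18 to 0.047 and REL -0.11 to 0.036. RELA between lines with the hairpins was -0.12 to 0.0030, and in the interaction of line and hairpin REL was -0.27 to 0.025 and NFKBIE -0.14 to 0.17.

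Replicate numbers are shared by the groups, but the deviations of libraries with the same number correlated from -0.378 to 0.334 and 6 of 24 libraries correlated best with their own number, so the numbers were not taken to pair libraries. They came closest between shPAX8-1 and shPAX8-2 in 786-M1A cells, where 3 of 4 same-number pairs correlated above 0.1 (the 4 ran from 0.0408 to 0.334, against a mean of -0.0693 for other pairs). With the replicate number as a block, 99 of 100 values of the NF-kB genes kept their call, and TRAF1 between hairpins in 786-M1A cells did not (-0.50, edgeR adjusted p = 0.0569). Depth was lowest in 786-M1A cells with shPAX8-2 (11634419 to 18218051 counts per library). The deepest library was replicate 3 of OS-LM1 shPAX8-2 (52059375 counts). Its CPM was the highest of its group for NFKB1, NFKB2, RELB, NFKBIA, NFKBIE, TNFAIP3, TRAF1 and PAX8, but not for RELA, REL or BIRC3.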

Other observations

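The mean of the z-scores of the 10 genes over 24 libraries followed RELB (Pearson r = 0.944), TRAF1 (0.858), NFKBIA (0.805), NFKB1 (0.769) and TNFAIP3 (0.725) most closely among the genes themselves. BIRC3 (0.622) came next, followed by RELA (0.253), NFKBIE (0.0861), NFKB2 (-0.109) and REL (-0.279). Each of the 10 genes is itself part of this mean, which raises its r, so these values cannot be set against those of other genes. Among all other genes the 5 with the highest r to this mean were TRIM16 (0.941), ZNF787 (0.932), ZNF689 (0.915), PPP6R1 (0.914) and ARHGEF11 (0.913). The 24 libraries share 2 lines and 3 constructs, so these values are a description of level patterns and not a test.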
